A study of Danio rerio with 8 samples.

Results

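The genes described here encode the subunits of oxidative phosphorylation, the respiratory chain and the ATP synthase of the mitochondrion, together with a few of their assembly factors and inhibitors. They were chosen by symbol, from platform names beginning with nduf, sdha to sdhd, uqcr, cox followed by a digit, or atp5. A gene was kept when its probe set reached a signal of 41 on at least 2 of the 8 arrays, and it was represented by its brightest probe set. Of 88 genes matched on 94 probe sets, 81 were kept, out of 5219 named genes tested. The other 7 stayed below the minimum: cox11, cox15, cox4i1l, cox4i2, ndufaf2, ndufaf8 and sdhaf3. Near the minimum, the lower of the 2 brightest arrays read 34.9 for cox15 and 39.4 for ndufaf2, just outside, and 41.9 for atp5if1b and 46.0 for sdhaf4, just inside. The 81 genes comprised 36 named for complex I, 6 for complex II, 7 for complex III, 14 for complex IV and 18 for the ATP synthase. The name subunits fits 70 of them, since 9 encode assembly factors and 2 encode inhibitors of the ATP synthase (atp5if1a and atp5if1b). In mammals the product of the related NDUFA4 gene is found with complex IV, so ndufa4a is left out of the counts of structural genes by complex given below.

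RNA came from whole zebrafish embryos, pooled at 120 per sample, and each sample was hybridised to a single Affymetrix array. The 4 groups of 2 arrays, biological duplicates per the design text, were wild type (WT, AB x TÜB crosses) and MZspg, each at 4.7 hours after fertilisation, which is 30% epiboly, and at 7 hours, which is 60% epiboly. Embryos called MZspg are mutant for spg, the locus of the transcription factor Pou5f3, in both the maternal and the zygotic contribution, and carry the allele m793. No other allele or agent is named, and the strain background of the mutant is not stated. Staging followed in vitro fertilisation or natural crosses, with no record of which sample came by which route. Epiboly is the spreading of the blastoderm over the yolk, and the percentage gives how far it has come.

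Complexes I and II take electrons from NADH and from succinate and pass them through ubiquinone to complex III, cytochrome c, complex IV and finally oxygen. Complexes I, III and IV pump protons across the inner mitochondrial membrane, and the ATP synthase lets them return through its ring of c subunits while its F1 head makes ATP. Most subunits are encoded in the nucleus, and a small set, including the catalytic core of complex IV, in the mitochondrial genome. A fish egg is stocked with mitochondria and with transcripts for these proteins by the mother, and the embryo's own genome takes over transcription during the blastula stages.

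The arrays were checked before the genes were compared. At 30% epiboly pou5f3 read 2850 and 3166 in WT against 1292 and 1327 in MZspg, and at 60% epiboly 2957 and 2214 against 1268 and 890.8. Spike-in control probe sets had a geometric mean of 592.1 on replicate 2 of WT and 736.4 on replicate 2 of MZspg at 60% epiboly, against 79.9 to 189.9 on the other 6 arrays. Those 2 arrays also had the most empty cells, 22.4% and 20.2%, against 14.98% to 18.2%. MZspg replicate 2 at 60% epiboly stood apart in some cell type markers too. The summed signal of 10 yolk syncytial layer genes was 8884 there against 3405 to 6488 on the other arrays, and that of 7 germ cell genes was 481 against 674 to 1524. Of the yolk syncytial genes, apoeb, hnf4a, mxtx2 and ctsba were not highest on that array. Of the germ cell genes, nanos3, tdrd7a, gra and dazl were not lowest on that array. The sums of mesoderm, endoderm, ectoderm and enveloping layer genes there lay within the range of the other arrays. Among 5 markers of later tissues that young embryos should lack, 4 never reached 41 on any array, and the muscle actin gene actc1a read 251.6 on that array against 10.7 to 66.2 elsewhere. Keratins and other genes of the enveloping layer (9 on the array) summed to 2891 on MZspg replicate 2 at 30% epiboly and to 6511 to 8575 on the other 3 arrays of that stage. The sum hides single genes. At that stage krt4, krt5 and anxa1a were lower on both MZspg arrays than on both WT arrays, and cldnb was higher.

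The oxidative phosphorylation genes were well measured. All 8 arrays reached the minimum for 71 of the 81 genes, no cell was empty, and only atp5if1b reached it in a single group. With ndufa1 and cox14 it was also 1 of 3 genes that reached 41 on MZspg arrays alone, so these 3 entered through the genotype in which they are high, while no gene entered through WT alone. With replicate 1 given first, their median log2(signal + 9) at 30% epiboly was 7.86 and 7.44 on the WT arrays and 8.22 and 7.79 on the MZspg arrays. At 60% epiboly it was 8.06 and 7.80 (WT) and 7.90 and 8.90 (MZspg). The highest of these medians belonged to MZspg replicate 2 at 60% epiboly, whereas the 7375 probe sets tested had medians of 6.99 to 7.21 on the 8 arrays, whose filled cells were given near-equal distributions before deposit. That array gave the highest signal of the 8 for 49 of the 81 genes (60.5%), against 17.9% of all tested probe sets. WT replicate 2 at 30% epiboly gave the lowest for 28 of them.

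**Figure D1:**
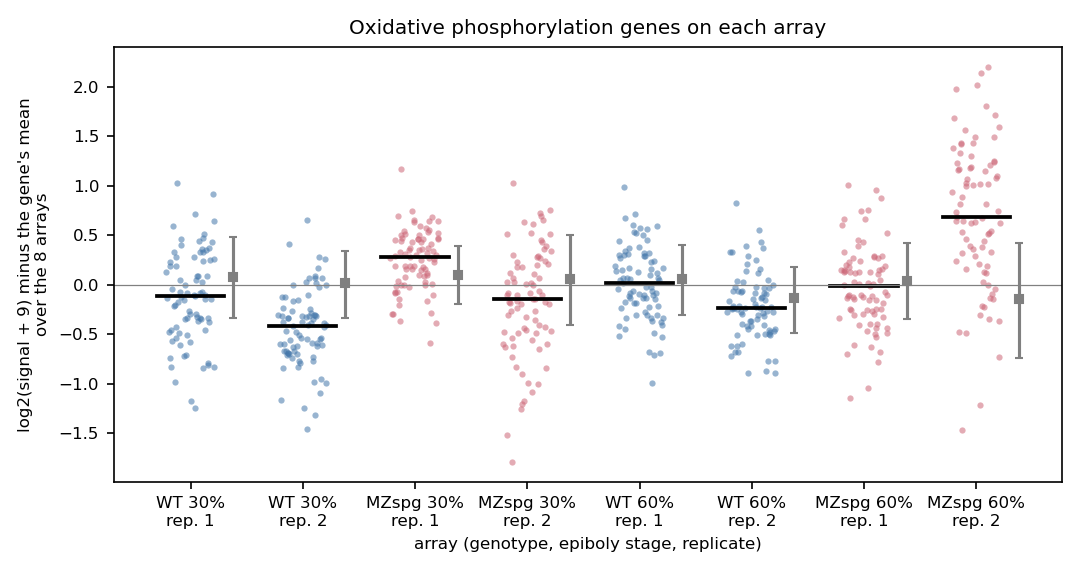
Signals of the 81 oxidative phosphorylation genes on each array, as log2(signal + 9) minus the gene's mean over the 8 arrays; each point is a gene, black bars are medians, and grey squares with bars give the median and the quartiles of all 7375 tested probe sets. The points of MZspg replicate 2 at 60% epiboly lie highest, with a median of 0.69, while the grey median of that array is -0.15.

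The excess on that array was spread unevenly over the complexes. MZspg replicate 2 exceeded replicate 1 at 60% epiboly by a median of 0.72 on the log2 scale, and 71 of 81 genes were higher, while 37.9% of all tested probe sets were. In the other 3 groups replicate 2 lay below replicate 1, by medians of -0.34 (WT, 30%), -0.38 (MZspg, 30%) and -0.27 (WT, 60%). On WT replicate 2 at 60% epiboly, the other array of high spike-in signal, 21 of 81 genes were higher than on replicate 1. Of all tested probe sets 34.8% were, with a median of -0.16. The part of the spike-in level in these differences was not tested. The largest excess of the MZspg array was that of ndufc1 (1.79), an accessory subunit of complex I, followed by the complex IV subunit cox6c (1.56) and by ndufa5 (1.53). The 10 genes that were not higher there included sdha (-0.35) and sdhdb (-0.32) of complex II, ndufv1 (-0.17) and ndufa9a (-0.29) of complex I, cox10 (-0.19) and the ATP synthase gene atp5f1b (-0.06). The array held the highest signal of 21 of 31 structural genes of complex I, 11 of 16 of the ATP synthase, 8 of 11 of complex IV and 3 of 7 of complex III, but of none of the 4 of complex II. The part of the marker signals above in these levels was not tested.

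The first comparison set MZspg against WT at 30% epiboly, shortly before gastrulation. Most oxidative phosphorylation genes had higher signals in MZspg, by modest amounts, and none passed the test. Of the 81 genes, 71 had a log2 difference above 0 (87.7%, against 55.5% of the tested probe sets). Their median was 0.32, from -0.31 to 0.99, and that of all tested probe sets 0.05. No gene was called in either direction, a call being an adjusted p under 0.05 in limma's fit over all tested probe sets, which called 0.407% of them higher and 1.27% lower. The lowest adjusted p of these genes was 0.274, and 4 reached an unadjusted p under 0.05, as did 690 of the 7375 probe sets. In whole embryos, fewer cells of a kind and less RNA per cell cannot be told apart, here or in the comparisons that follow.

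The groups did not overlap for 34 genes, 32 with both MZspg arrays higher (39.5%, against 21.7% of the tested probe sets) and 2 with both lower (2.47%, against 16.8%). The difference was carried by MZspg replicate 1 and WT replicate 2. MZspg replicate 1 exceeded WT replicates 1 and 2 by medians of 0.35 and 0.73. MZspg replicate 2 differed from them by medians of -0.06 and 0.26, and 38 of 81 genes were higher in its comparison with WT replicate 1. Over all tested probe sets these medians were 0.03 and 0.10 for MZspg replicate 1, and -0.01 and 0.07 for MZspg replicate 2.

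The accessory subunit gene ndufa6 of complex I had the largest difference at 30% epiboly. It read 38.9 and 32.3 in WT against 136.2 and 44.6 in MZspg, for a log2 difference of 0.99 (SE 0.528, adjusted p = 0.673 by limma), so the MZspg arrays lay above both WT arrays but far from each other. The inhibitor gene atp5if1a, whose product blocks the ATP synthase from running backwards, read 320.8 and 286.2 in WT and 521.9 and 663.8 in MZspg (0.94, SE 0.332, adjusted p = 0.293). Here the gap between the groups was wider than the spread within either. The complex IV assembly factor gene cox14 had dim signals of 18.1 and 10.6 in WT and 43.1 and 27.7 in MZspg (0.92, adjusted p = 0.581). At the other end stood the complex I assembly factor gene ndufaf5, at 58.4 and 29.2 in WT and 29.4 and 34.6 in MZspg (-0.31, adjusted p = 0.971), whose groups overlapped and whose sign turned without WT replicate 1 (0.10). Both arrays of MZspg were lower for sdhb, the iron-sulfur subunit of complex II (718.9 and 606.7 against 509.5 and 598.5; -0.25, adjusted p = 0.944). The same held for ndufv1, which encodes the NADH-binding flavoprotein of complex I (637.5 and 612.2 against 549.9 and 556.5; -0.17, adjusted p = 0.985).

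By complex, all 11 structural genes of complex IV, all 7 of complex III, 27 of 31 of complex I and 14 of 16 of the ATP synthase had higher means in MZspg at 30% epiboly. Their medians were 0.41, 0.32, 0.23 and 0.39 in that order. Complex II differed in its count, with 2 of 4 structural genes above 0 and a median of 0.17. No difference between the complexes was tested.

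At 60% epiboly, in mid-gastrulation, MZspg was again compared with WT, and the test called 2 genes higher in MZspg and none lower. They were atp5f1e, which encodes the small epsilon subunit of the ATP synthase's F1 sector, and cox14. The test called 2.28% of all probe sets higher and 2.24% lower at this stage, so 2 of 81 (2.47%) is close to the share over all probe sets. Among genes that reached the signal minimum in both genotypes, the calls were 1 of 78 higher (1.28%, against 1.09% of such probe sets), namely atp5f1e. The median of the 81 genes was 0.41 (from -1.07 to 1.93), that of all tested probe sets 0.01, and 66 genes lay above 0 (81.5%, against 50.6%). An unadjusted p under 0.05 was reached by 17 of the genes and by 1639 probe sets.

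In WT atp5f1e read 197.6 and 176.7, and in MZspg 460.0 and 710.9. Both MZspg arrays lay well above both WT arrays, with a log2 difference of 1.57 (SE 0.364, adjusted p = 0.0315 by limma). In WT cox14 read 28.8 and 30.2, and in MZspg 86.1 and 215.9, which gave a difference of 1.93 (SE 0.441, adjusted p = 0.0301). All 4 WT arrays of both stages were under the signal minimum for this gene, which was kept for its MZspg signals, so its call is a description and supports no genotype difference. The fold on the log2(signal + 9) scale understates the change of so dim a gene. With an array left out, the group of that array keeps a single array, which is assumed to vary like the other groups. Under such fits atp5f1e no longer passed when MZspg replicate 2 or any WT array of its stage was missing (1.26 to 1.88, adjusted p up to 0.202). The call of cox14 did not hold when MZspg replicate 2 of 60% epiboly, or any of the 4 WT arrays of both stages, was missing (1.30 to 2.55, adjusted p up to 0.207). Within the pair of arrays of low spike-in signal (replicates 1) the difference was 1.18 for atp5f1e and 1.33 for cox14, and within the pair of high signal (replicates 2) it was 1.96 and 2.52.

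**Figure D2:**
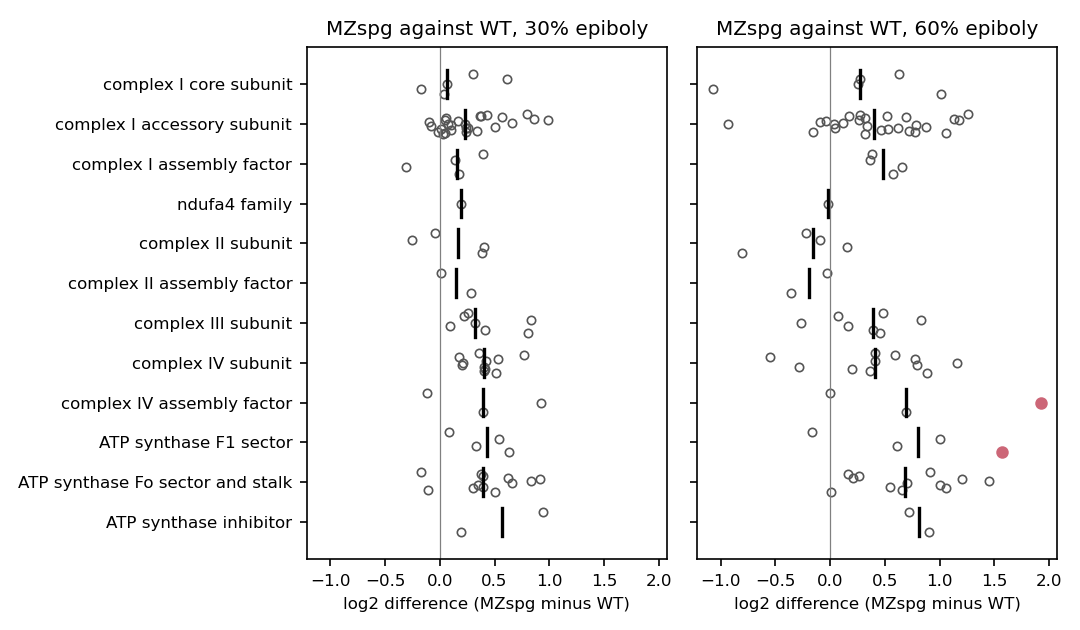
Log2 difference of MZspg minus WT for each of the 81 genes, by class, at 30% epiboly (left) and 60% epiboly (right); open circles did not pass, filled circles passed the test (adjusted p under 0.05), and black bars are class medians. The 2 filled circles at 60% epiboly are cox14 (1.93) and atp5f1e (1.57), and no circle is filled at 30%.

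Over the 81 genes at 60% epiboly, called or not, the groups did not overlap for 31 with MZspg higher (38.3%, against 28.7% of the tested probe sets) and for 8 with MZspg lower (9.88%, against 23.1%). The next largest difference above 0 was that of atp5mea, which encodes the e subunit of the membrane sector, at 106.5 and 93.8 in WT and 194.3 and 427.1 in MZspg (1.45, SE 0.409, adjusted p = 0.067). The largest below 0 was that of ndufv1, at 359.1 and 378.0 in WT and 182.2 and 161.0 in MZspg (-1.07, SE 0.278, adjusted p = 0.0517). Its 4 arrays fell into 2 tight pairs, and the difference stayed at -0.98 without MZspg replicate 2 (adjusted p = 0.169). The acyl carrier protein gene ndufab1b read 248.0 and 266.8 in WT and 112.6 and 151.2 in MZspg (-0.93, SE 0.362, adjusted p = 0.162). For sdhdb, a membrane anchor of complex II, the signals were 106.7 and 82.4 in WT and 56.9 and 43.9 in MZspg (-0.80, SE 0.358, adjusted p = 0.215). In neither gene did the groups overlap. The others of the 8 were sdha (-0.22), sdhaf4 (-0.36), uqcrc2b (-0.27), cox5ba (-0.55) and atp5f1b (-0.17).

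The group's median difference at 60% epiboly rested on MZspg replicate 2. Against WT replicates 1 and 2, MZspg replicate 1 differed by medians of -0.08 and 0.19, with 37 and 53 of 81 genes higher. Replicate 2 differed by 0.74 and 0.98, with 68 and 69 genes higher. Over all tested probe sets the medians were 0.02 and 0.18 for replicate 1, with 51.1% and 62.6% higher. For replicate 2 they were -0.13 and 0.0, with 44.2% and 49.5% higher. The 0.19 against WT replicate 2 is thus close to the median of all probe sets. Without MZspg replicate 2 the median was 0.06, and without replicate 1 it was 0.84, against 0.10 and -0.06 over all tested probe sets. Without both arrays of high spike-in signal it was -0.08, against 0.02.

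**Figure D3:**
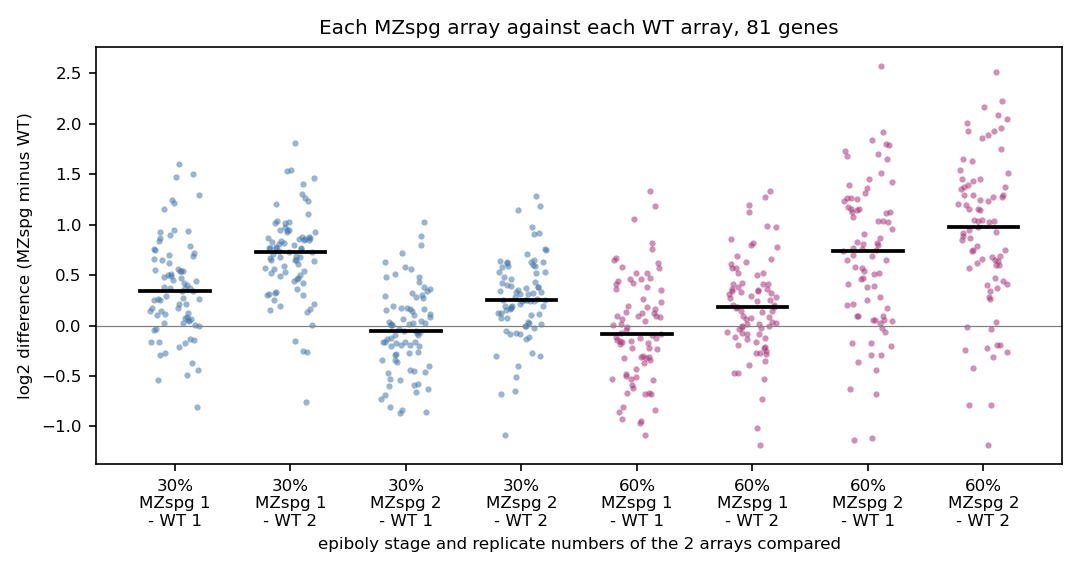
Log2 difference of each MZspg array minus each WT array of its stage for the 81 genes; each point is a gene, black bars are medians, and the numbers under the axis are the replicates compared. At 60% epiboly the medians for MZspg replicate 1 are -0.08 and 0.19 and those for replicate 2 are 0.74 and 0.98. Over all tested probe sets, not drawn, they are 0.02 and 0.18, and -0.13 and 0.0.

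The genotype comparisons of the 2 stages share no arrays. The sign was the same at both for 64 of 81 genes (79.0%), and for 61.6% of the tested probe sets, with a Pearson correlation across genes of 0.44 and 0.48. Of the 64 genes, 60 lay above 0 at both stages. The shared sign thus largely restates that most of these genes lay above 0 at each stage. For 17 genes (21.0%, against 9.41%) the MZspg arrays lay above the WT arrays without overlap at both stages. They comprised 5 complex I genes (ndufa1, ndufa3, ndufa6, ndufa13, ndufb5), uqcrc2a of complex III, cox5ab, cox6a1 and cox14 of complex IV, and 8 genes of the ATP synthase and its inhibitor (atp5f1c, atp5f1e, atp5mc3a, atp5mc3b, atp5md, atp5mea, atp5meb, atp5if1a). Of these, ndufa1 and cox14 reached the signal minimum on MZspg arrays alone. Over genes that reached it in both genotypes, the count was 15 of 78 (19.2%, against 8.24% of such probe sets). The reverse held for ndufv1 alone among the 81 genes, and for 616 of the 7375 tested probe sets. As an example, uqcrc2a, which encodes a core protein of complex III, read 110.1 and 79.3 in WT and 160.8 and 186.8 in MZspg at 30% epiboly (0.83, adjusted p = 0.505), and 101.9 and 59.0 in WT and 139.4 and 152.1 in MZspg at 60% (0.83, adjusted p = 0.21). The small membrane-sector gene atp5md read 61.7 and 54.1 against 164.6 and 82.0 at 30% (0.91, adjusted p = 0.619), and 132.5 and 82.9 against 172.2 and 370.8 at 60% (1.20, adjusted p = 0.153). Genes are not independent replicates, and none of the 17 passed at both stages.

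In WT the step from 30% to 60% epiboly raised 1 gene and lowered 3. The gene cox10, whose product adds the farnesyl group in the making of heme A for complex IV, rose, and sdhdb, the complex I accessory subunit gene ndufa9a and the c-subunit gene atp5mc1 fell. These are 1.23% and 3.70% of the 81 genes, where 5.6% of all tested probe sets were called higher and 8.14% lower. The call of cox10 is a description, for the reason given below. The 81 genes had a median of 0.22, with 49 above 0, and all tested probe sets a median of -0.07. The MZspg arrays play no part in these differences other than in the estimate of the spread.

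The signal of cox10 in WT was 22.1 and 28.7 at 30% epiboly and 113.3 and 100.2 at 60%, a log2 difference of 1.76 (SE 0.481, adjusted p = 0.0344 by limma). For sdhdb it was 289.6 and 184.9, then 106.7 and 82.4 (-1.23, SE 0.358, adjusted p = 0.0431). The 30% arrays of both genes lay apart from the 60% arrays. At 30% epiboly cox10 reached the signal minimum on MZspg replicate 1 alone. It was thus kept for its 60% signals, and its call is a description. The signals of ndufa9a were 1023 and 648.1, then 370.8 and 388.1 (-1.08, SE 0.295, adjusted p = 0.0339), and those of atp5mc1 were 1799 and 1149, then 866.4 and 668.4 (-0.91, SE 0.261, adjusted p = 0.0402). Replicate 1 was well above replicate 2 at 30% epiboly in both, and the stages still did not overlap. The 4 calls were lost without either 60% array or replicate 1 of 30% epiboly, and those of cox10 and sdhdb also without replicate 2 of 30%. Such fits leave 1 WT array in a group and called fewer of all probe sets too, so the losses are not particular to these genes. Over the 4 pairs of WT arrays the differences ran from 1.54 to 1.98 for cox10 and from -1.71 to -0.75 for sdhdb. They ran from -1.44 to -0.73 for ndufa9a and from -1.42 to -0.40 for atp5mc1. On the arrays of low spike-in signal alone, which leave 1 WT array at 60%, the 4 differences were 1.84, -1.06, -1.12 and -0.72, and the calls were lost. The next largest differences above 0 in WT were those of ndufa6 (1.62, adjusted p = 0.0613) and ndufa3 (1.42, adjusted p = 0.0884).

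In MZspg the same step raised 11 genes and lowered 7. As shares of the 81 genes, 13.6% rose and 8.64% fell, where the test called 13.8% of all probe sets higher and 18.8% lower, so the share that rose was close to that over all probe sets. The genes that rose encode subunits of complex I (ndufv2, ndufa3, ndufa6, ndufs5, ndufs6), complex IV (cox7a2a) and the ATP synthase (atp5f1e, atp5mf, atp5pd) and the assembly factors cox10 and cox14. Those that fell encode subunits of complex I (ndufv1, ndufa9a, ndufc2), complex II (sdhdb), complex IV (cox5ba) and the ATP synthase (atp5mc1, atp5mc3b). No gene of complex III was called. The median of the 81 genes was 0.29, with 52 above 0, and that of all tested probe sets -0.11.

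The gains and the losses behaved differently when MZspg replicate 2 of 60% epiboly was left out. Without it the 11 gains ran from 0.68 (cox7a2a) to 1.97 (cox10), against 1.27 to 2.12 with all arrays. Only that of cox10 was not smaller. The 7 falls ran from -0.75 (atp5mc3b) to -2.25 (sdhdb), against -0.78 to -2.41, with ndufv1 at -1.56 and atp5mc1 at -1.19. These differences are the same without both arrays of high spike-in signal, since the other of them is a WT array. The calls of the gains were lost without MZspg replicate 2 of either stage. Such fits leave 1 array in a group and called fewer of all probe sets too. Among the calls higher, however, a smaller share was lost over all probe sets than over these genes. The falls of sdhdb and ndufv1 passed with any array left out. That of atp5mc1 did not with MZspg replicate 2 of 30% epiboly missing, or without both arrays of high spike-in signal.

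No gene fell further than sdhdb, which encodes 1 of the hydrophobic subunits that hold succinate dehydrogenase in the inner membrane. In MZspg its signal was 320.8 and 290.1 at 30% epiboly and 56.9 and 43.9 at 60%. The 2 stages lay far apart, with a log2 difference of -2.41 (SE 0.358, adjusted p = 0.00126 by limma), and between -2.64 and -2.18 over the 4 pairs of arrays. Leaving out an array gave adjusted p-values of at most 0.0131. The other subunit genes of complex II did not pass in MZspg: sdha (-0.50), sdhb (-0.08) and sdhc (-0.59).

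For ndufv1 the signals in MZspg were 549.9 and 556.5 at 30% epiboly and 182.2 and 161.0 at 60%, nearly the same in both replicates of each stage. The difference was -1.64 (SE 0.278, adjusted p = 0.00213), and -1.73 to -1.55 over the 4 pairs (adjusted p at most 0.0216 over the fits on 7 arrays). In WT the same gene went from 637.5 and 612.2 to 359.1 and 378.0 (-0.75, adjusted p = 0.0915), which did not pass. Its partner ndufv2, which encodes an iron-sulfur protein bound to NDUFV1 in the NADH-oxidising module, rose in MZspg on its brightest probe set, from 160.1 and 53.0 to 273.6 and 693.5 (2.12, SE 0.511, adjusted p = 0.0101). Here the replicates disagreed at both stages, the 4 pairs ranged from 0.74 to 3.50, and a further tested probe set of ndufv2 had signals of 133.5 and 53.9, then 67.7 and 93.3 (-0.10, adjusted p = 0.894). The probe sets of ndufv2 thus do not give the same direction.

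**Figure D4:**
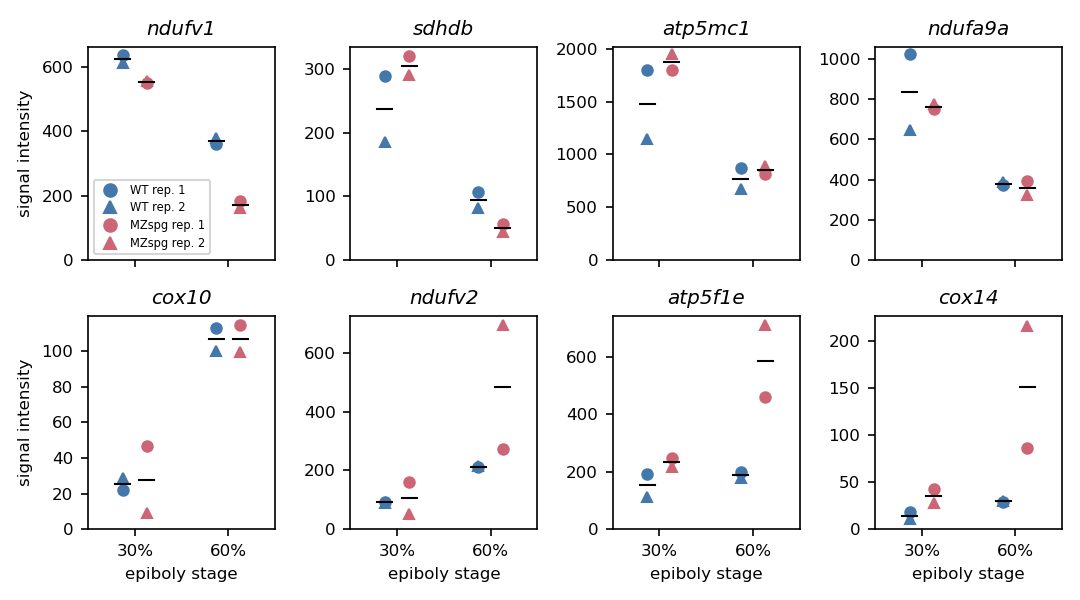
Signal intensity of 8 named genes on each array against epiboly stage, on linear axes that start at 0; circles are replicate 1, triangles replicate 2, blue WT, red MZspg, and black bars the mean of the 2 arrays. The signals of ndufv1, sdhdb, atp5mc1 and ndufa9a are lower at 60% than at 30% in both genotypes, while in ndufv2, atp5f1e and cox14 the triangle of MZspg at 60% epiboly lies highest.

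The genes of the c ring, the rotor of the ATP synthase, were represented by 3 paralogs that encode the same kind of subunit. The signals of atp5mc1 in MZspg were 1799 and 1952 at 30% and 817.5 and 892.6 at 60% epiboly (-1.12, SE 0.261, adjusted p = 0.00846). For atp5mc3b they were 1696 and 1715, then 1010 and 963.7 (-0.78, SE 0.217, adjusted p = 0.0185). Both fell with close replicates, and atp5mc3b did not pass with either 30% array or replicate 2 of 60% missing (adjusted p up to 0.0981). The third paralog, atp5mc3a, had 1141 and 1028, then 1129 and 1345 (0.18, adjusted p = 0.56) and did not pass. The difference between the paralogs was not tested, and probe sets of near-identical genes may share RNA.

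The remaining falls in MZspg were those of ndufa9a, ndufc2 and cox5ba. For ndufa9a the signals were 751.6 and 773.2, then 394.3 and 321.6 (-1.08, SE 0.295, adjusted p = 0.0175), and the fall was as large as in WT. The accessory subunit gene ndufc2 had 1123 and 1041, then 438.7 and 693.9 (-0.96, adjusted p = 0.031). The complex IV subunit gene cox5ba had 1423 and 952.0, then 532.7 and 623.4 (-1.003, adjusted p = 0.0289). The stages did not overlap in any of these 3, and each call was lost without some of the MZspg arrays (adjusted p up to 0.0945, 0.132 and 0.165). Those arrays were both 30% arrays and replicate 2 of 60% for ndufa9a. They were both 30% arrays and replicate 1 of 60% for ndufc2, and replicate 1 of 30% and both 60% arrays for cox5ba.

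Among the gains, cox10 alone was called in WT as well. Its MZspg signals were 46.7 and 8.79 at 30% epiboly and 114.6 and 99.5 at 60% (1.88, SE 0.481, adjusted p = 0.013), and the genotypes were level at 60% epiboly (0.00). Its 30% arrays alone would not have met the signal minimum, so this call too is a description. The other 10 had their highest signal on MZspg replicate 2 of 60% epiboly. For ndufa6 the signals were 136.2 and 44.6, then 182.0 and 490.0 (1.81, SE 0.528, adjusted p = 0.023), and for ndufa3 196.5 and 74.5, then 256.4 and 670.2 (1.70, SE 0.522, adjusted p = 0.0287). The replicates of both genes differed by more than 2-fold at either stage. The assembly factor gene cox14 had 43.1 and 27.7, then 86.1 and 215.9 (1.74, SE 0.441, adjusted p = 0.0124), and atp5f1e 247.9 and 217.4, then 460.0 and 710.9 (1.27, SE 0.364, adjusted p = 0.0213). The replicates of atp5f1e were close at 30% epiboly, and both 60% arrays lay clearly above them. The gene cox14 met the signal minimum only with its MZspg arrays of 60% epiboly, so its stage call is a description. The ATP synthase genes atp5mf, which encodes the f subunit (272.6 and 214.4, then 519.5 and 1104; 1.61, adjusted p = 0.0115), and atp5pd, which encodes the d subunit of the stalk (1.38, adjusted p = 0.0309), rose too. So did the accessory subunit genes ndufs5 (218.5 and 102.1, then 262.2 and 769.6; 1.53, adjusted p = 0.0353) and ndufs6 (290.1 and 117.6, then 406.1 and 677.0; 1.46, adjusted p = 0.0215), and cox7a2a (152.0 and 81.9, then 184.9 and 467.6; 1.33, adjusted p = 0.0444). The calls of ndufa3, ndufs5 and cox7a2a were also lost without either WT array of 30% epiboly, that of cox7a2a also without either WT array of 60%, and that of atp5pd also without MZspg replicate 1 of 30%. Over such fits the largest adjusted p of each of the 11 ran from 0.0967 for atp5mf to 0.328 for cox7a2a.

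**Figure D5:**
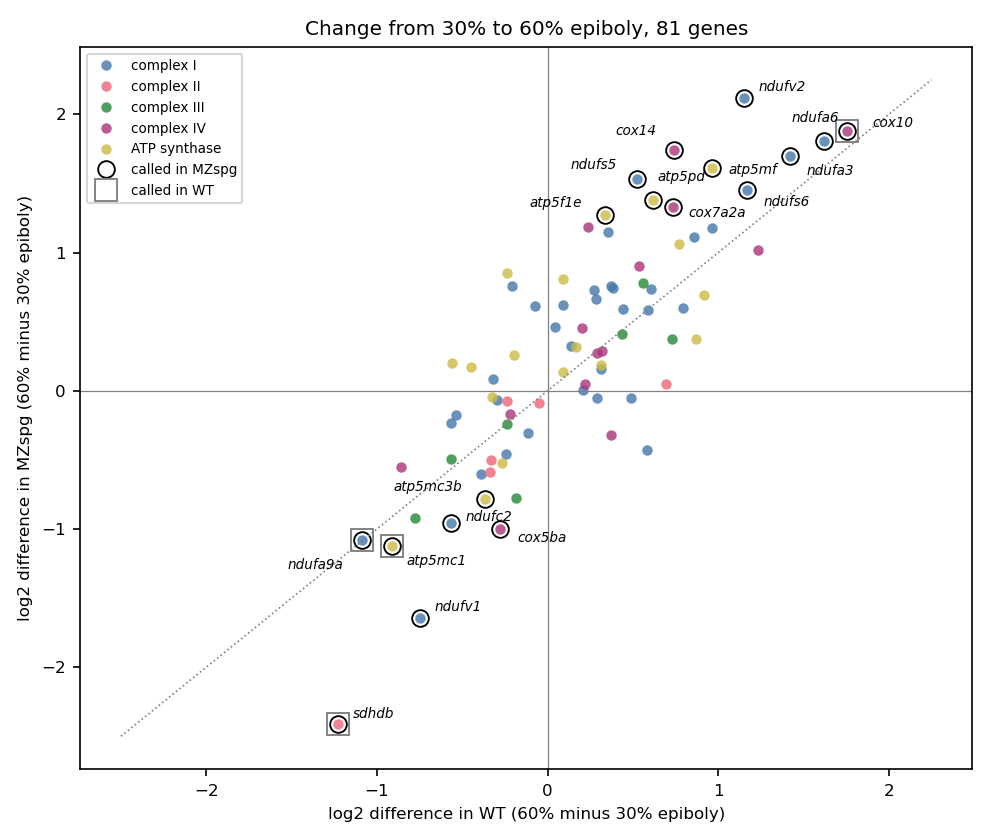
Log2 difference of 60% minus 30% epiboly in MZspg (vertical) against that in WT (horizontal) for the 81 genes, coloured by complex, with circles around genes called in MZspg and squares around genes called in WT; the dotted line marks equal differences. The lowest point is sdhdb (-1.23 in WT, -2.41 in MZspg), and cox10 (1.76 and 1.88), ndufa9a and atp5mc1 carry both marks with it.

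The stage comparisons of WT and MZspg share no arrays. The sign was the same in both for 70 of 81 genes (86.4%, against 79.6% of the tested probe sets), and the Pearson correlation across genes was 0.82, against 0.78. The 4 genes called in WT were called in MZspg in the same direction. Over all tested probe sets this held for 793, where 413 were called higher and 600 lower in WT. The interaction of genotype and stage, which tests whether the stage difference differs between the genotypes, called 0% of the tested probe sets and none of the 81 genes. By limma 2 of the 81 genes and 638 of the 7375 probe sets had an unadjusted p under 0.05, and the lowest adjusted p among the genes was 0.574. The largest interactions below 0 were those of sdhdb (-1.18), ndufab1b (-1.01) and ndufv1 (-0.89), so the larger falls of sdhdb and ndufv1 in MZspg than in WT did not pass a test of that difference. Above 0 lay 48 of the 81 genes (median 0.15), with the largest interactions in atp5l (1.09), ndufs5 (1.01) and cox14 (1.003).

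The genes with the brightest probe set in several classes passed in no comparison. The Rieske iron-sulfur protein gene uqcrfs1 read 1484 and 1197 in WT and 1343 and 1507 in MZspg at 30% epiboly, and 986.1 and 817.5 in WT and 907.9 and 1113 in MZspg at 60%. Its genotypes overlapped at both stages (0.09 and 0.16), and its stage differences were -0.57 and -0.50 (adjusted p = 0.125 and 0.124). The complex IV subunit gene cox7c, from 1306 to 2780, had genotype differences of 0.40 and 0.37 and stage differences of 0.32 and 0.29. The catalytic beta subunit gene atp5f1b read 1527 and 1272 in WT and 1729 and 1265 in MZspg at 30% epiboly, then 1141 and 1177 in WT and 1049 and 1009 in MZspg (genotype differences 0.09 and -0.17). The copper chaperone gene cox17 had 358.3 and 316.7 in WT and 392.5 and 503.9 in MZspg, then 146.4 and 225.4 in WT and 205.8 and 435.8 in MZspg, with a stage difference of -0.86 in WT (adjusted p = 0.157). The genotype differences at 30% and 60% epiboly were 0.19 and -0.02 for ndufa4a, 0.13 and 0.36 for the complex I assembly factor gene ndufaf4, and 0.01 and -0.03 for sdhaf2, which adds flavin to complex II. A difference that misses the threshold with 2 arrays per group does not show that levels were equal.

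The mitochondrially encoded COX1, the catalytic subunit of complex IV, is written in capitals on the platform and falls outside the symbol rule, and it was looked at after its annotation was seen. It had 3 probe sets, and none was called in any comparison. The brightest read 7819 on all 8 arrays, the highest value of the table on each, so it carries no difference. A dimmer one read 4392 and 4264 in WT and 4416 and 4746 in MZspg at 30% epiboly, and 5216 and 4885 in WT and 5216 and 3258 in MZspg at 60%. Its lowest array was MZspg replicate 2 at 60% epiboly, and its genotype difference at that stage was -0.29 (SE 0.194, adjusted p = 0.399). The other probe set was level on that array: it had 5662 and 5906 (WT) and 5906 and 6551 (MZspg) at 30% epiboly, then 6551 and 5906 (WT) and 5906 on both MZspg arrays. Its lowest array was WT replicate 1 at 30% epiboly, and its genotype difference at 60% was -0.07 (adjusted p = 0.765).

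Neighbouring pathways of the mitochondrion were described by lists of genes. Of 10 tested genes for electron carriers and nucleotide exchange, none passed between the genotypes (medians 0.11 and 0.08). The nearest was etfb, a subunit of the electron transfer flavoprotein, at 102.7 and 111.7 in WT and 380.7 and 227.7 in MZspg at 60% epiboly (1.39, SE 0.357, adjusted p = 0.0503). Between the stages, etfdh, which hands those electrons to ubiquinone, rose in WT (1.50, adjusted p = 0.0493) and in MZspg (1.93, adjusted p = 0.00915). The cytochrome c gene cycsb rose in WT (1.08, adjusted p = 0.0294). In MZspg the mitochondrial creatine kinase gene ckmt1 was empty on both 30% arrays and read 42.0 and 105.4 at 60% (adjusted p = 0.00343), and ucp2, of the uncoupling protein family, fell (-0.75, adjusted p = 0.0408). Of 9 tested assembly factors outside the symbol rule, none passed between the genotypes (medians -0.36 and -0.21). The lowest adjusted p among them at 30% was that of ecsit (-1.03, adjusted p = 0.337), and at 60% that of surf1 (0.99, adjusted p = 0.132). From 30% to 60% epiboly in MZspg, surf1, which acts on complex IV, rose (1.41, adjusted p = 0.0124) and bcs1l, which acts on complex III, fell (-1.10, adjusted p = 0.0459, 1 of the 60% cells empty and filled).

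Of 8 tested genes of ubiquinone synthesis, coq2, which joins the ring to its side chain, was lower in MZspg at 60% epiboly. Its signals were 46.3 and 56.2 in WT and 11.1 and 9.54 in MZspg (-1.64, SE 0.331, adjusted p = 0.0175; 5 of the 8 fits on 7 arrays called it, with adjusted p up to 0.0886). From 30% to 60% epiboly in WT, 4 of the 8 fell: coq7 (-1.65, 1 of the 60% cells empty and filled), coq8aa (-1.49), pdss1 (-1.43) and coq10a (-1.29). In MZspg coq7, empty on both 60% arrays, and coq8aa (-1.88, adjusted p = 0.00323) fell. The share of all probe sets called lower was 8.14% in WT and 18.8% in MZspg. The list's median was -1.25 in WT and -0.62 in MZspg, against -0.07 and -0.11 over all tested probe sets. Of 6 tested genes of mitochondrial genome upkeep, none passed between the genotypes (medians 0.18 and -0.28), the nearest being pprc1 at 60% epiboly (-1.75, adjusted p = 0.0531). In MZspg tfam, the packaging and transcription factor of the mitochondrial genome, fell from 86.0 and 62.8 to 23.2 and 5.13 (-1.95, SE 0.42, adjusted p = 0.00603), and the coactivator gene pprc1 fell from 367.9 and 559.7 to 259.8 and 90.1 (-1.50, adjusted p = 0.0282). MZspg replicate 2 at 60% epiboly was the lowest array for both, and neither passed without it (over the 8 fits on 7 arrays the adjusted p reached 0.0546 for tfam and 0.211 for pprc1). Some of these calls concern genes that reached 41 only where they are high, and are given as descriptions. Of these, coq2 reached it on WT arrays of 60% epiboly alone, ckmt1 and surf1 at 60% alone, and coq7, coq10a and tfam at 30% alone. The gene bcs1l reached it on the WT arrays of 30% epiboly alone, and its MZspg signals at 30% were 39.3 and 39.1. At 30% epiboly etfdh reached it on MZspg replicate 1 alone, so it was kept for its 60% signals. For ckmt1 and coq7, both MZspg cells of a stage were empty and filled with the same value. Leaving out either of those arrays therefore cannot test their calls. Among the other genes of these lists, the stage call of coq8aa in MZspg passed with any array missing. Those of etfdh, surf1 and pprc1 in MZspg did not without replicate 2 of either stage, and those of ucp2 and bcs1l passed in 1 of the 8 such fits each. In WT every one of these calls was lost with any WT array missing, and that of etfdh also with a MZspg array of 60% epiboly missing. Fits without a WT array called fewer of all probe sets between the WT stages too, so these losses are not particular to the listed genes.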

How the data were processed

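Total RNA of pooled zebrafish embryos was measured on 8 arrays in 4 groups of 2. The deposited values are linear signal intensities per probe set, made with MAS5 per the submitters' processing notes; Genedata Expressionist Analyst was used for the authors' comparison, per the design text. All 8 arrays have the same highest value (7819) and medians of 66.9 to 67.2 over their filled cells, and each value of an array recurs on another, as quantile normalization gives; a signal therefore reflects a rank on its array. The step that did this, and the rule behind empty cells (17.3% of the table), were not given in the sources used here. The number of arrays limits precision.

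Intensities were analysed as log2(signal + 9), a scale that understates changes of dim genes. Each empty cell received 8.35, the 10th percentile of the values (1.22% of cells of tested probe sets). Of 12477 probe sets, 30 controls were left out and 7375 with 41 or more on at least 2 arrays were tested. Platform annotation gave 9206 probe sets 1 gene symbol, 104 several and 3137 none. The 2 matching probe sets with several symbols were left out, and all 81 symbols are current in the gene table used. Limma 3.58.1 in R 4.3.3 fitted 1 mean per group over all 8 arrays (eBayes with trend, 4 residual degrees of freedom); p-values were two-sided and Benjamini-Hochberg adjusted over all tested probe sets, with calls under 0.05. The fit was tested on simulated data.

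Replicate numbers were not taken as pairs: deviations of same-numbered arrays correlated at -0.14 (30% epiboly) and 0.08 (60%). Members, classes and lists were chosen with earlier results of these data known. Genes named with values are those called in any comparison, the 3 largest differences each way in each comparison of 2 groups, the brightest of each class and those next to the signal minimum. From each list, named genes are the called ones and those of smallest adjusted p; others were chosen after their values were seen. Alternatives covered the pseudocount, filters, empty cells, centring, the arrays fitted, the trend, replicate block, spike-in level, averaging of probe sets and leaving out arrays. No sequences were available for these genes here.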

Additional observations from a re-analysis of the deposited data

How the results depend on the processing

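Counts of called genes at 30% epiboly (0) and for the interaction (0) were the same under each alternative run. The 2 calls between genotypes at 60% epiboly became 0 with no filter on dim probe sets, 1 with a filter of 100, 0 with the 4 arrays of the comparison alone, 4 with spike-in level as a term and 0 without both arrays of high spike-in signal. The 4 calls between stages in WT became 0, 10, 1 and 0 with no filter, the 4 arrays alone, the spike-in term and without both arrays. The 18 calls in MZspg became 10, 6, 7 and 3 under the same 4 alternatives. With an array left out the counts ran from 0 to 12 at 60% epiboly, 0 to 7 in WT and 3 to 32 in MZspg. The median interaction of the 81 genes, 0.15, was -0.41 without both arrays of high spike-in signal. The difference of ndufaf5 at 30% epiboly ran from -0.72 to 0.10 with an array left out, and turned above 0 without WT replicate 1. Over 788 values of named genes under alternatives, 633 kept their direction and side of the threshold, 137 lost a call, 17 gained a call and 1 turned. With a replicate block the counts were 0, 2, 4, 18 and 0. Over all probe sets it called 177 higher and 243 lower between genotypes at 60% epiboly. Between stages it called 374 and 534 in WT, and 986 and 1375 in MZspg. With that block atp5mc1 no longer passed in WT (adjusted p = 0.0519 by limma) and ndufa6 did (0.0427). Among the 78 genes that reached the signal minimum in both genotypes, a restriction chosen after seeing the data, the count at 60% epiboly was 1. With the numbers crossed at 30% epiboly, an alternative chosen after seeing the data, the counts were 0, 3, 5, 18 and 0. Over all probe sets it called 285 higher and 333 lower between genotypes at 60% epiboly. Between stages it called 582 and 836 in WT, and 1097 and 1550 in MZspg. Centring the arrays on their medians moved no median of all probe sets by over 0.1, but calls changed. Between genotypes at 60% epiboly, 2 genes were then called higher and 1 lower (214 and 241 of all probe sets). Between stages the calls were 2 higher and 3 lower in WT (536 and 600) and 12 and 7 in MZspg (1165 and 1351). The causes were not tested. Dim genes such as cox10 and cox14, under the signal minimum on some arrays, have the least certain folds.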

Other observations

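Glycolysis, the breakdown of glucose to pyruvate, feeds the respiratory chain. Of 15 tested glycolysis genes none passed between MZspg and WT (medians -0.04 at 30% and -0.21 at 60% epiboly). In WT 1 rose and 4 fell from 30% to 60% epiboly, and in MZspg 1 rose and 6 fell. Over all tested probe sets 5.6% rose and 8.14% fell in WT, 13.8% rose and 18.8% fell in MZspg, and between the genotypes 0.407% to 2.28% were called in each direction, so stage calls outnumber genotype calls there too. The stage differences of the list had medians of -0.75 and -0.86 against -0.07 and -0.11 over all tested probe sets. Hexokinase 1 (hk1) rose in both genotypes, from 25.9 and 16.3 to 207.5 and 292.1 in WT (log2 difference 3.10, SE 0.454, adjusted p = 0.00582 by limma) and from 50.6 and 15.5 to 356.4 and 508.3 in MZspg (3.51, adjusted p = 0.000766). At 30% epiboly hk1 reached the signal minimum on MZspg replicate 1 alone. It was thus kept for its 60% signals, and its calls are descriptions. The triosephosphate isomerase gene tpi1a fell (-2.09 in WT and -2.71 in MZspg), as did the phosphoglycerate kinase gene pgk1 (-2.07 and -2.50) and the phosphoglycerate mutase gene pgam1a (-1.43 and -1.30). The hexokinase gene hk2 fell in WT alone by the test (-1.35, adjusted p = 0.0303; -0.91, adjusted p = 0.0687 in MZspg), and gapdh (-1.001), eno3 (-1.38) and pkma (-2.07) in MZspg alone. At 60% epiboly hk2 reached the signal minimum on WT replicate 2 alone, so its call is a description too. In WT these calls were lost without replicate 1 of 30% epiboly, and all but that of hk1 without either 60% array. Such fits called fewer of all probe sets between the WT stages too, so the losses are not particular to glycolysis. In MZspg hk1, tpi1a, pgk1 and pkma passed with any array missing, and gapdh, pgam1a and eno3 did not without replicate 2 of 30% epiboly. For hk2, gapdh, eno3 and pkma the difference between the genotypes did not pass the interaction test, which called no probe set (638 had an unadjusted p under 0.05 by limma). The paralog tpi1b had the smallest adjusted p between genotypes at 30% epiboly (0.87, adjusted p = 0.17), and did not pass.

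Of 14 tested genes of the citric acid cycle and pyruvate dehydrogenase, none passed between the genotypes (medians 0.10 and 0.00). The shares of all probe sets given for glycolysis apply to its stage calls too, 1 higher in WT, and 2 higher and 3 lower in MZspg. The dihydrolipoamide dehydrogenase gene dldh rose between the stages in WT (29.9 and 94.8, then 413.7 and 281.8; 2.46, adjusted p = 0.0213) and in MZspg (2.99, adjusted p = 0.00368, 1 of the 30% cells empty and filled). At 30% epiboly dldh reached the signal minimum on WT replicate 2 alone. It was thus kept for its 60% signals, and its calls are descriptions. In MZspg pdhx rose (1.08, adjusted p = 0.0304), while pdha1a (-2.73, adjusted p = 0.00162, 1 of the 60% cells empty and filled), dlat (-1.91, adjusted p = 0.0119) and sucla2 (-1.09, adjusted p = 0.0155) fell. At 60% epiboly pdha1a reached the signal minimum on WT replicate 1 alone, so its call is a description too. Pyruvate dehydrogenase thus had components that rose and components that fell. The genes pdha1a and dlat encode parts of its E1 and E2 enzymes, and pdhx encodes the protein that binds E3. The other E1 gene, pdhb, read 223.8 and 192.5 in WT and 459.4 and 454.6 in MZspg at 30% epiboly (1.11, SE 0.298, adjusted p = 0.117), and 325.5 and 243.9 in WT and 540.5 and 613.1 in MZspg at 60% (1.01, adjusted p = 0.0772). Its groups did not overlap at either stage. The stage calls of dldh and pdha1a in MZspg passed with any array missing. Those of dlat, sucla2 and pdhx did not without MZspg replicate 2 of 60% epiboly. The call of dldh in WT was lost without WT replicate 1 of 30% or either WT array of 60%, where fewer of all probe sets were called too.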
